A study of Mus musculus with 2 samples.

Results

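Of 9395 kept cells in 2 single-cell RNA-seq libraries of embryonic mouse peripheral retina, 463 carried RNA of the transcription factor genes that mark precursors of amacrine and horizontal cells, the interneurons that shape signals between photoreceptors and ganglion cells. A kept cell had at least 500 detected genes and at most 10% of its UMIs from mitochondrial genes, a UMI (unique molecular identifier) standing for 1 captured RNA molecule. Members held at least 1 UMI of Ptf1a, or at least 1 UMI each of Tfap2b and Onecut2, which are called the pair here. They also held 0 UMIs of the ectodermal keratin genes Krt5, Krt14 and Krt15, at most 2 UMIs of the collagen genes Col3a1 and Col1a2 together, and fewer than 10 UMIs of Sncg, a synuclein gene of retinal ganglion cells. The albino library gave 171 members among 3512 kept cells and the pigmented library 292 among 5883. Measured values chose these cells, so every difference between them and other cells, or between classes of them, is a description without a test.

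In the embryonic retina, multipotent progenitors leave the cell cycle as ganglion, horizontal, cone and amacrine precursors in overlapping waves. Foxn4 in progenitors acts upstream of Ptf1a, a bHLH factor that forms a complex with an E-protein and Rbpj and is required in mice for horizontal and most amacrine cells. Prdm13, Tfap2a and Tfap2b act downstream of Ptf1a, whereas Onecut1, Prox1 and Lhx1 are factors of the horizontal cell fate and Onecut2 is also made in ganglion and cone precursors.

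Both libraries were made from E13.5 (mid-gestation) optic cups of a-Cre;Td embryos, 3 pooled per library, by sorting TdTomato-positive cells. The a-Cre transgene is driven by a Pax6 enhancer that is active in the peripheral retina, and Td is a reporter that Cre switches on, so the sampled cells are those in which Cre had acted and their descendants, with the neighbouring ciliary margin among them. The albino library bears the strain label Swizz ICR. The pigmented library bears the strain label Tyrc2j, which by name is a tyrosinase allele known from albino mice, although its title calls it pigmented, and the titles were followed for the groups. The comparison addressed how albinism bears on the output of neurons from the ciliary margin. Each group is 1 library of pooled embryos, so strain, sex of the embryos, library preparation and albinism cannot be told apart, and all intervals cover counting error only.

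The libraries held 46271969 UMIs (albino) and 69965728 UMIs (pigmented), with medians of 11239 and 10448 UMIs per kept cell. Members had a median of 9291 UMIs in the albino library and 8701.5 in the pigmented library. The 8475 other retinal cells, meaning kept cells within the keratin and collagen limits that were not members, numbered 3144 (albino, median 11244 UMIs) and 5331 (pigmented, median 10424 UMIs). Xist without any UMI of 4 Y-linked genes was found in 96.5% of albino members and 29.1% of pigmented members, while Y-linked UMIs without Xist were found in 0 albino members and 144 pigmented members (49.3%). The 2 libraries had 8 cell barcodes in common, of which 0 were members in both. Scrublet, a doublet caller, called 0 albino members and 22 pigmented members (7.53%), against 6 of all 3512 kept albino cells (0.171%) and 168 of all 5883 kept pigmented cells (2.86%). Pigmented members were thus called more often than pigmented cells in general, while the albino calls were too few for a working caller, and called cells were kept.

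Members made up 4.87% of kept cells in the albino library (95% exact Clopper-Pearson interval 4.18 to 5.63%) and 4.96% in the pigmented library (4.42 to 5.55%). The ratio of the shares, albino over pigmented, was 0.981 with an exact conditional interval of 0.807 to 1.19. Cells with Ptf1a and the pair, called double cells here, were 63 albino cells (1.79% of kept cells) and 118 pigmented cells (2.01%), a ratio of 0.894 (0.648 to 1.22). Pair-only cells, with the pair and 0 UMIs of Ptf1a, were 34 albino cells (0.968%) and 49 pigmented cells (0.833%), a ratio of 1.16 (0.728 to 1.84). Ptf1a-only cells, with Ptf1a and without the full pair, were 74 albino cells (2.11%) and 125 pigmented cells (2.12%), a ratio of 0.992 (0.734 to 1.33). The interval of each ratio included 1, which does not show that the shares were equal.

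**Figure D1:**
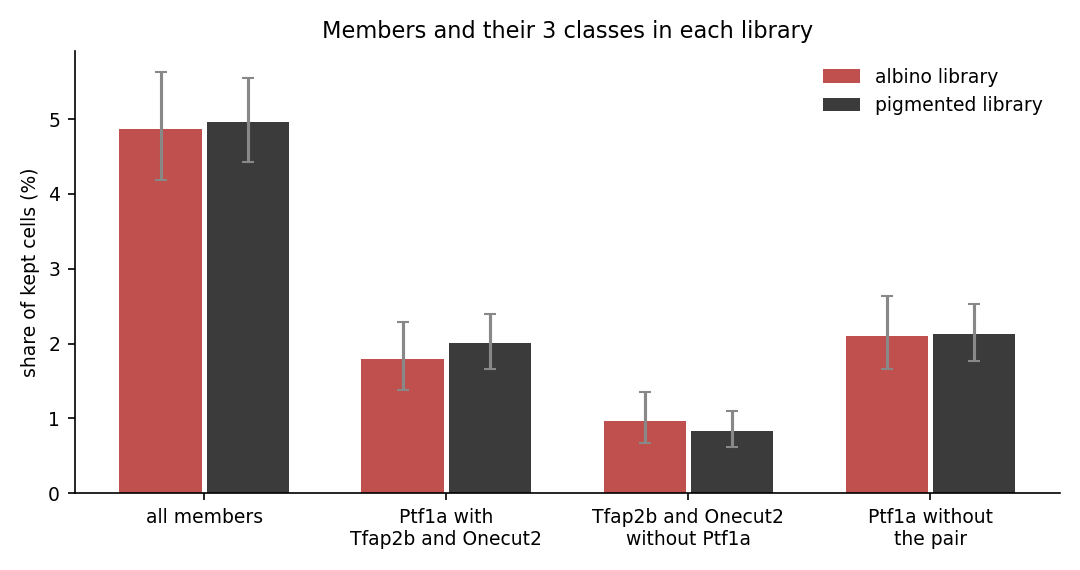
Share of kept cells (percent, vertical axis) in all members and in each of the 3 classes, with a bar for the albino library left of that for the pigmented library. Grey lines are 95% exact binomial intervals, which cover counting error only, and the 2 libraries lie within each other's intervals in every class.

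Ptf1a was sparse even in the cells it selected, with a median of 3 UMIs and at most 15 in albino members, and a median of 4 and at most 22 in pigmented members. Onecut2, with medians of 9 and 7 UMIs (albino, pigmented), was not particular to members: it was found in 96.0% of albino and 95.7% of pigmented cells with 10 or more Sncg UMIs, the ganglion-like cells that the rule leaves out. Ptf1a UMIs, by contrast, were found in 0 of 39 albino and 0 of 70 pigmented collagen-rich cells (more than 20 collagen UMIs, medians of 15538 and 15519 UMIs per cell), which allows shares of up to 7.69% and 4.29%. In Sncg-rich cells the share with Ptf1a was 1.29% (albino, median 15606 UMIs) and 1.53% (pigmented, median 16076 UMIs). The share of Tfap2b in collagen-rich cells reached 17.9% (albino) and 11.4% (pigmented), against 57.3% of albino members and 57.9% of pigmented members. The member shares follow in part from the rule, which required Tfap2b in double and pair-only cells, so they do not show how specific Tfap2b is.

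The cells near the limits of the rule differed in what else they held. Just inside it, 27 albino and 37 pigmented cells had 1 UMI of Ptf1a and no pair, and their Prdm13 levels were 7.33 CPM (counts per 1000000 UMIs, summed over the cells) and 45.4 CPM. Just outside it, 930 albino and 1627 pigmented cells with Onecut2 alone had Prdm13 at 0.661 and 1.49 CPM, and 8 albino and 9 pigmented cells had Tfap2b alone. A further 18 albino and 19 pigmented cells met the marker part but had 10 or more Sncg UMIs, with Isl1, a ganglion cell factor, at 757 and 804 CPM.

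Genes with at least 10 UMIs expected in members were ranked by the smaller of the 2 libraries' ratios of members over other retinal cells. The highest of them outside the rule was a target of Ptf1a. Prdm13 (chr4:21677480-21685963, minus strand, in GENCODE M21 on GRCm38), a zinc finger factor required for subsets of amacrine cells, reached 137 CPM in albino members against 0.563 CPM in other albino retinal cells, and 177 CPM in pigmented members against 0.562 CPM in other pigmented retinal cells. Of 7516 genes with at least 20 member UMIs in each library, a few had most of their UMIs in the members, which held 4.55% of all retinal UMIs in the albino library and 4.71% in the pigmented library. The listing of such genes was made after the values were seen, and since genes entered it through their UMIs in members, it is a description that supports nothing further. Besides Ptf1a (95.5% albino, 98.7% pigmented) and Tfap2b (90.6% and 93.1%), which the rule used, it held Prdm13 with 92.1% and 94.0% of its UMIs in members.

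Genes better known from other tissues were also restricted to members. Cldn5, which encodes the endothelial tight junction protein claudin-5, had 81.7% of its albino and 79.0% of its pigmented UMIs in members. Vtn, encoding the matrix protein vitronectin, had 76.1% and 76.0%, and Nupr1, encoding a stress-induced nuclear protein, had 77.8% and 80.5% in the albino and pigmented libraries. Lyve1, known from lymphatic endothelium, had 84.6% and 79.3%, and Reg1, known from the exocrine pancreas, another tissue that depends on Ptf1a, had 85.7% and 87.0%. Eomes, a T-box factor gene, had 96.6% and 85.0%, and Kirrel2, a cell adhesion gene, had 80% and 80.7%. The shares of Lyve1, Reg1 and Eomes rest on few UMIs, with 22, 24 and 28 in albino and 23, 20 and 34 in pigmented members. Of the other endothelial genes, Cdh5, Pecam1 and Emcn had at most 1 UMI each in the members of either library, and Kdr stood at 5.37 CPM in albino and 5.85 CPM in pigmented members against 14.1 and 19.3 CPM in other retinal cells.

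**Figure D2:**
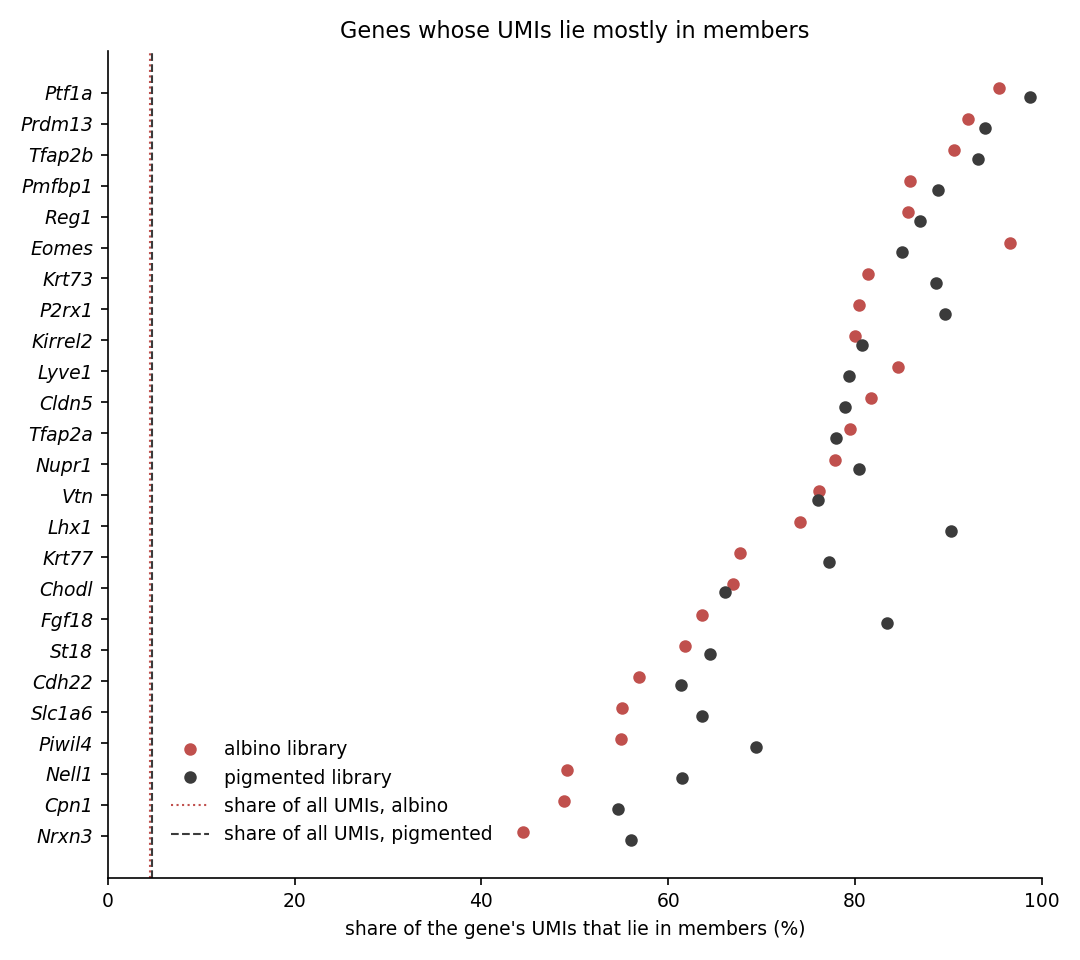
Percent of each gene's UMIs among retinal cells that lay in members (horizontal axis), for the genes most restricted to them, in the albino library and the pigmented library. Ptf1a and Tfap2b chose the cells; Prdm13 follows at 92.1% and 94.0%, far right of the 4.55% and 4.71% of all UMIs that members held.

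The promoters of Ptf1a and of Prdm13, Vtn and Cldn5, 3 of the genes most restricted to members, are shown because their RNA was found in the same cells. Each line is the 300 bases around the annotated start in RefSeq (GRCm38.p6), 5′ to 3′ on the gene's strand, with capitals on matches of either strand to CANNTG (the E-box, bound by bHLH proteins) or TTTCCC (the TC-box, bound by Rbpj in the Ptf1a complex), each counted on its own where they overlap. The Ptf1a window lies at chr2:19445413-19445712 on the plus strand, Prdm13 at chr4:21685914-21686213 on the minus strand, Vtn at chr11:78498870-78499169 on the plus strand and Cldn5 at chr16:18776597-18776896 on the plus strand.
Ptf1a: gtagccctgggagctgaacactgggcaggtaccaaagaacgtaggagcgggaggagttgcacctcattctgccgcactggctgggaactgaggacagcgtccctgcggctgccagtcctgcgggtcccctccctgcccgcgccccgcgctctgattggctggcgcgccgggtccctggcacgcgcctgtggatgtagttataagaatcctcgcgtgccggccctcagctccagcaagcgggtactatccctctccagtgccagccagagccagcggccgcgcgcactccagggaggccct
Prdm13: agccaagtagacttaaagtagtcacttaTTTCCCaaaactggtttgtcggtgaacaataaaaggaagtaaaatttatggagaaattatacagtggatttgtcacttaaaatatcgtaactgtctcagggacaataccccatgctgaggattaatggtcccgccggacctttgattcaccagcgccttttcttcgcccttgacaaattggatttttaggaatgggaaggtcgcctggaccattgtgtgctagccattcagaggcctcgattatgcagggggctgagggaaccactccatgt
Vtn: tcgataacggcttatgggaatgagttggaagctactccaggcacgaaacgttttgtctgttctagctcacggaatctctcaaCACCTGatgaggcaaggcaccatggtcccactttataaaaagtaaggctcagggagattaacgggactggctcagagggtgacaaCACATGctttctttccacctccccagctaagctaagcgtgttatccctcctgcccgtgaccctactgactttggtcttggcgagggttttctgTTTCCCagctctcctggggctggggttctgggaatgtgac
Cldn5: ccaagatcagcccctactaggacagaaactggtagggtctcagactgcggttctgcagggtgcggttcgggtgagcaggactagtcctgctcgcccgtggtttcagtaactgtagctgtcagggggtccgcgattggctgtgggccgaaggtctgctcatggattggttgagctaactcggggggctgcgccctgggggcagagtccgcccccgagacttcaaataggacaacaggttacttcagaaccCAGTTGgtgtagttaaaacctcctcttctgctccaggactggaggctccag
The window of Vtn held 2 E-boxes and 1 TC-box, that of Prdm13 0 and 1, that of Cldn5 1 and 0, and that of Ptf1a 0 of either. Among 32851 RefSeq promoters of the same length, 72.31% held an E-box, 25.25% a TC-box and 18.03% both, so these matches are common and are given as descriptions.

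Across the transcriptome, 235 of 9346 genes (2.51%) with at least 10 UMIs expected in members were at least 2-fold higher in members than in other retinal cells in both libraries, and 541 (5.79%) at least 2-fold lower. Among these 9346 genes, the largest ratios after Prdm13 belonged to Nupr1, Vtn and Chodl, a lectin gene known from motor neurons. Some genes under that minimum had larger ratios, against 73.7 and 83.3 for Nupr1, but these rest on few UMIs. The Reg1 ratio was 126 (43.3 to 499) in the albino and 135 (40.0 to 709) in the pigmented library, from 9 and 10 member cells. The Eomes ratio was 588 (97.2 to 24032) and 115 (47.6 to 334), with 28 of 29 albino and 34 of 40 pigmented UMIs in members. Chodl stood at 98.8 CPM in albino members against 2.33 CPM in other albino cells, and at 102 against 2.59 CPM in the pigmented library. Nrxn3, encoding the presynaptic adhesion protein neurexin-3, reached 225 against 13.4 CPM (albino) and 259 against 10.0 CPM (pigmented), ratios of 16.8 (14.8 to 19.2) and 25.8 (23.2 to 28.7). Also named by rank were Ypel2, Ndrg1, Lix1, Pgbd5, Mpped2, Dnah7a and Cabp1, with ratios between 6.92 and 15.3 in the albino library and between 7.02 and 14.8 in the pigmented library. Cplx3 (complexin-3), Grasp and Slc1a2, a glutamate transporter gene, had ratios of 5.64, 6.83 and 6.74 in the albino and 6.88, 7.83 and 5.92 in the pigmented library.

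Among factors of the amacrine and horizontal fate, Ptf1a and Tfap2b set aside, 10 of 14 had enough UMIs, and 4 were at least 2-fold higher in members of both libraries, with 1 at least 2-fold lower. The median log2 ratio of the 10 was 1.02 (albino) and 0.97 (pigmented), against 0.05 over all genes in each library. Higher were Prdm13, Neurod4, Rorb and Meis2. Neurod4, a bHLH gene of amacrine genesis, stood at 180.4 CPM in albino members against 29.2 CPM in other albino cells and at 153 against 38.8 CPM in the pigmented library. Rorb, a nuclear receptor gene upstream of Ptf1a, stood at 2189.5 against 1016 CPM (albino) and 2151 against 1054 CPM (pigmented). Foxn4, which acts before Ptf1a, was the one lower, at 11.8 against 32.3 CPM (albino) and 12.4 against 33.1 CPM (pigmented). Barhl2, Neurod1, Nhlh2, Pax6 and Bhlhe22 had ratios above 1 in both libraries but did not reach 2 in both. Tfap2a had too few UMIs for that count, with 31 albino and 53 pigmented member UMIs against 8 and 15 in other retinal cells. Summed, the 14 factors were not particular to members, where they stood at 4154 CPM (albino) and 4090 CPM (pigmented). They stood at 4266 and 4174 CPM in other retinal cells with UMIs of both Crx and Otx2 (106 albino, 240 pigmented cells).

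Of the horizontal cell genes other than Onecut2, 6 had enough UMIs, of which 2 were at least 2-fold higher and 1 lower, with medians of 0.58 (albino) and 0.13 (pigmented). Onecut1 stood at 211 against 66.9 CPM (albino) and 183 against 55.7 CPM (pigmented). Like Onecut2, it was not particular to members. Onecut1 was found in 68.8% of albino and 67.2% of pigmented Sncg-rich cells, against 64.9 and 61.3% of members. After thinning of every cell to the same number of UMIs, the shares were 35.0 and 36.5% against 47.7 and 49.1%. Prox1 was 3.72-fold higher in albino members (3.06 to 4.48) and 3.58-fold higher in pigmented members (3.07 to 4.15). Nefm, a neurofilament gene of horizontal cells that ganglion cells also make, was lower, at 143 against 546 CPM (albino) and 98.2 against 246 CPM (pigmented). Calb1, which marks older horizontal cells, had 1 UMI in the members of each library.

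Transmitter genes of mature amacrine cells had few or no UMIs. Gad1, Chat and Slc18a3, and the amacrine factor gene Neurod6, had 0 UMIs in members, below the floor that 3 counts set at 1.61 CPM (albino) and 0.975 CPM (pigmented). Slc32a1, encoding the vesicular GABA and glycine transporter, had 11 albino and 37 pigmented member UMIs, levels of 5.90 and 12.0 CPM against 0.205 and 0.514 CPM in other retinal cells. Of the 4 genes of this list with enough UMIs, Calb2 (calretinin, chr8:110137502-110168210, minus strand) and Syt1 (synaptotagmin-1) were at least 2-fold higher in both libraries. Calb2 was 2.69-fold higher in albino members and 7.10-fold higher in pigmented members, the level in other retinal cells being 47.9 and 23.7 CPM. Calb2 was not particular to members, being found in 58.5% of albino and 58.8% of pigmented Sncg-rich cells. Its shares were 28.1 and 25.3% in members and 58.7 and 55.1% in double cells. After thinning they were 36.5 and 39.8% in Sncg-rich cells, 23.2 and 22.8% in members and 52.5 and 50.9% in double cells. Of 7 genes of cell spacing and arbor patterning with enough UMIs, 1 was past 2-fold, the protocadherin gene Fat3, which was lower at 5.90 against 18.4 CPM (albino) and 6.83 against 19.5 CPM (pigmented).

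The 3 classes of members were unlike each other. Levels are given for double, pair-only and Ptf1a-only cells in that order, with other retinal cells last where they are named. Prdm13 was highest in double cells, at 318, 21.9 and 61.3 CPM in the albino library and 400.5, 4.56 and 75 CPM in the pigmented library. Vtn was likewise highest in double cells, with 229.5, 10.9 and 26.8 CPM (albino) and 306, 0 and 26.0 CPM (pigmented). Hes5 (chr4:154960923-154962371, plus strand), a Notch target of progenitors and new precursors, was highest in Ptf1a-only cells, at 57.8, 225 and 875 CPM (albino) and 45.9, 169 and 1089 CPM (pigmented), with 189 and 239 CPM in other retinal cells. The Hes5 level of pair-only cells came mostly from those just inside the rule: with 1 UMI of Tfap2b it was 399 CPM (18 albino cells) and 234 CPM (34 pigmented cells), and with 2 or more it was 14.6 CPM (16 albino cells) and 24.3 CPM (15 pigmented cells), below the level of double cells. Isl1 (chr13:116298281-116309689, minus strand) was highest in pair-only cells, at 91.5, 582 and 85.6 CPM (albino) and 46.8, 427 and 57.4 CPM (pigmented), against 368 and 239.8 CPM in other retinal cells.

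**Figure D3:**
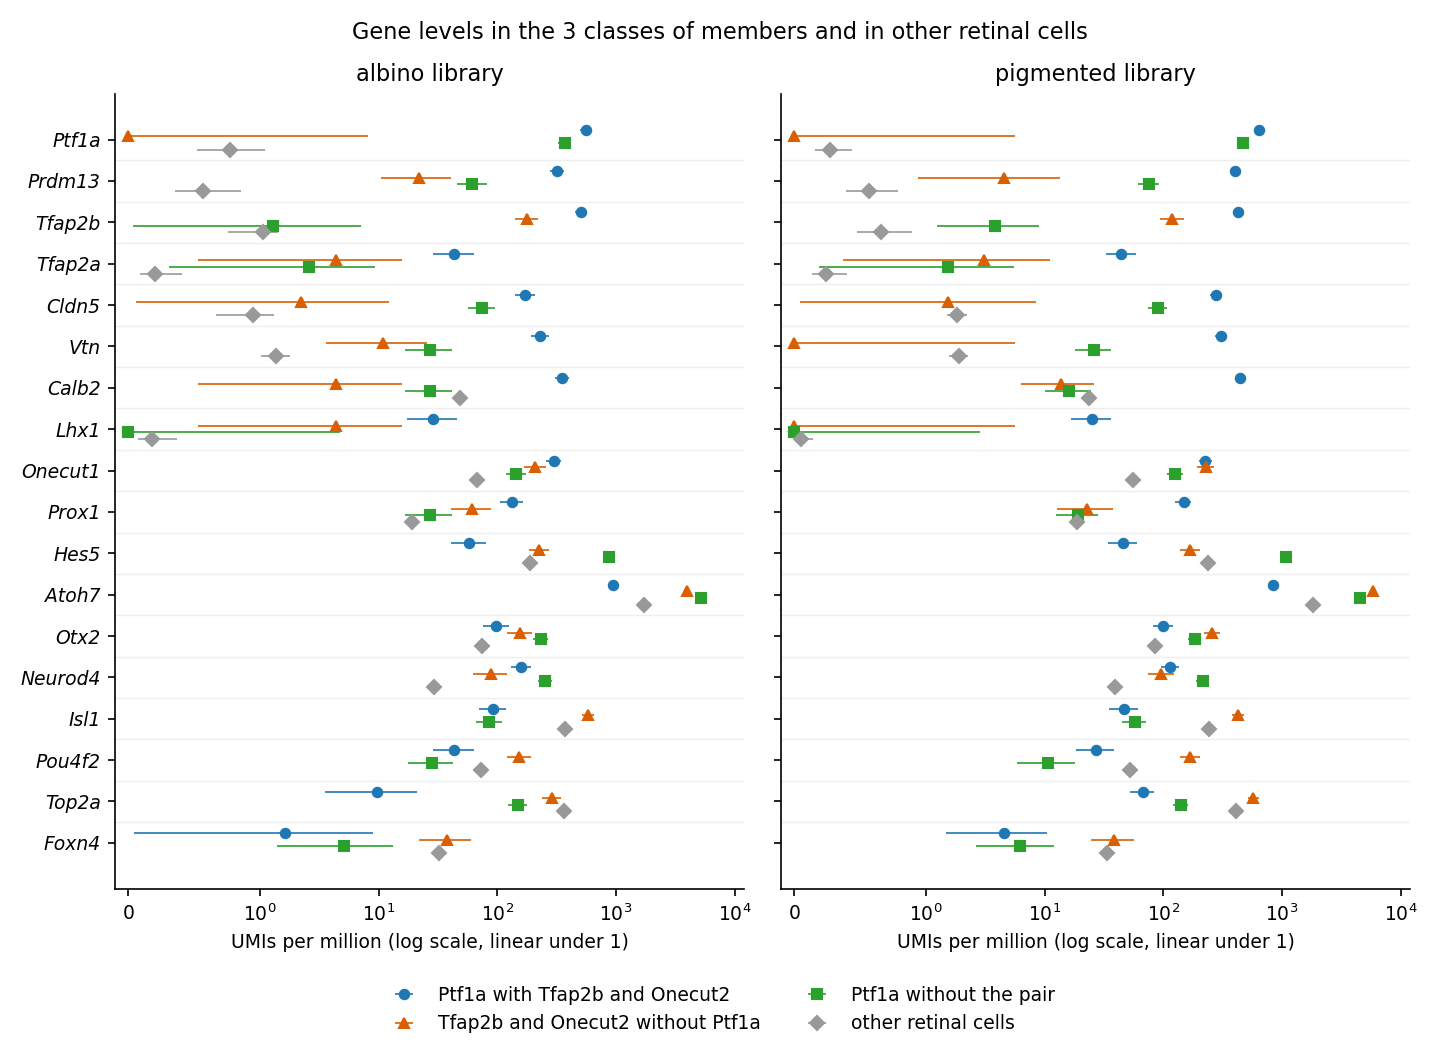
Level of selected genes (CPM, log axis that is linear under 1) in double cells, pair-only cells, Ptf1a-only cells and other retinal cells of the albino library (left) and the pigmented library (right), with 95% exact Poisson bars. Prdm13 and Calb2 peak in double cells, Hes5 and Atoh7 are lowest there, and Isl1 peaks in pair-only cells in both libraries.

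Double cells against Ptf1a-only cells was a comparison added after the data were seen. In it, 130 of 3897 genes (3.34%) with at least 50 UMIs in the 2 classes together were at least 2-fold higher in double cells of both libraries and 59 (1.51%) at least 2-fold lower. Calb2 stood at 348 CPM in double cells against 26.8 CPM in Ptf1a-only cells (albino) and at 439 against 16.1 CPM (pigmented). The other genes with the largest ratios were Cacng2 (a subunit of AMPA receptors), Lix1, Pou3f1, Pmfbp1, Nrxn3, Vtn, Celf4, Inka2 and Scrt2, with ratios between 7.54 and 13.8 in the albino library and between 7.81 and 40.6 in the pigmented library, where the Pmfbp1 ratio (10.8 to 342) rests on 2 UMIs in Ptf1a-only cells. The 189 genes past 2-fold were 114 after thinning to equal depth and 98 in cells with Xist alone (Xist and no Y-linked UMI). Fewer UMIs remained there under the same gene minimum, so fewer genes could be counted, and the falls do not measure how many ratios changed. Of 8 fate factors with enough UMIs, 4 were higher (Prdm13, Barhl2, Nhlh2 and Pax6), with medians of 0.85 and 0.84 on the log2 scale (albino, pigmented). Prox1 was 4.91-fold (3.01 to 8.35) and 7.72-fold (5.05 to 12.3) higher in double cells of the albino and pigmented libraries. Tfap2a had 27 UMIs in albino and 49 in pigmented double cells, against 2 in Ptf1a-only cells of each library, and Gad2 and Slc32a1 also had most of their member UMIs in double cells.

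Hes5 and Lfng headed the genes lower in double than in Ptf1a-only cells. Hes5 in double cells was 0.0661 of its level in Ptf1a-only cells of the albino library (0.0459 to 0.0924) and 0.0421 of it in the pigmented library (0.0312 to 0.0557). Lfng, a Notch-modifying glycosyltransferase gene, Hey1, another Notch target, and Notch1 itself were also among the 10 lowest in double cells. Atoh7, the bHLH gene that makes precursors competent for the ganglion cell fate, stood at 949 CPM in double cells against 5152 CPM in Ptf1a-only cells (albino) and at 834 against 4566 CPM (pigmented). Of 9 progenitor genes with enough UMIs, 5 were lower in double cells (Fgf15, Hes1, Hes5, Rax and Notch1), and of 12 neurogenic genes, 5 were lower (Atoh7, Dll1, Dll3, Btg2 and Mfng) and 1, Sox4, higher. The median depth was 8435 (albino) and 7530.5 (pigmented) UMIs in double cells and 9355 and 8985 UMIs in Ptf1a-only cells, so the classes differ in depth as well as in these genes.

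After every cell was thinned to 5000 UMIs, which left out 16 albino and 11 pigmented members and 269 and 348 other retinal cells, the order of the classes stayed for Prdm13 and Hes5. Prdm13 was then found in 71.2% of albino double cells, 6.06% of pair-only cells and 15.9% of Ptf1a-only cells (unthinned 82.5, 5.88 and 23.0%). The pigmented shares were 80.6, 2.04 and 22.6% (unthinned 91.5, 4.08 and 28.8%), against thinned shares in Sncg-rich cells of 0.186% (albino) and 0.257% (pigmented). Hes5 was found in 10.2% of double cells, 18.2% of pair-only cells and 69.8% of Ptf1a-only cells in the albino library, and in 8.33, 18.4 and 67.7% in the pigmented library. Its unthinned shares were 14.3, 23.5 and 64.9% (albino) and 10.2, 28.6 and 73.6% (pigmented), and in Sncg-rich cells it was found in 2.42 and 4.63% after thinning. Cldn5 was found in 35.6% of albino and 53.7% of pigmented double cells after thinning (unthinned 46.0 and 64.4%), and in 0 Sncg-rich and 0 collagen-rich cells of either library. Prdm13 was found in 20% of albino and 21.2% of pigmented members with Hes5, against 54.7% and 69.5% of members without it. Of the members with Hes5, 48 of 65 albino and 92 of 118 pigmented cells were Ptf1a-only cells. This contrast therefore does not separate Hes5 from the class.

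Pair-only cells, set against Ptf1a-only cells, had 30 of 3435 genes (0.873%) at least 2-fold higher in both libraries and 35 (1.02%) at least 2-fold lower. These 65 genes became 35 after thinning to equal depth and 33 in cells with Xist alone, again with fewer UMIs under the same gene minimum. Of 8 ganglion cell genes with enough UMIs, 6 were higher, among them Pou4f2, Isl1, Nefl, Gap43 and Elavl4, with a median log2 ratio of 2.61 (albino) and 2.13 (pigmented). Pou4f2, a POU factor gene of ganglion cells, stood at 153 CPM in pair-only against 28.1 CPM in Ptf1a-only cells (albino) and at 169 against 10.7 CPM (pigmented). Crabp1, encoding a retinoic acid binding protein, was 9.38-fold (7.51 to 11.8) and 5.82-fold (4.89 to 6.96) higher in the albino and pigmented libraries, and Smpd3, Ostf1, Dcx and Ebf1 were also among the 10 highest. Lower in pair-only cells were Prdm13 and Neurod4 of the fate factors, Hes1 and Hes5 of the progenitor genes, and Cldn5, P2rx1, Nupr1 and the neuropeptide gene Gal. Gal stood at 147 CPM in pair-only cells against 691 CPM in Ptf1a-only cells (albino) and at 56.2 against 646 CPM (pigmented). Onecut1 did not separate the 2 classes by 2-fold, with 208 against 144 CPM (albino) and 226 against 125 CPM (pigmented).

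The ganglion cell genes of pair-only cells go against the label of amacrine and horizontal precursors. Isl1 was found in 70.6% of albino and 61.2% of pigmented pair-only cells (69.7 and 53.1% after thinning), against 17.6 and 12.8% of Ptf1a-only cells (14.3 and 8.87%) and 7.69 and 5.71% of collagen-rich cells. Neither Isl1 nor Pou4f2 was particular to pair-only cells. In cells with Onecut2 alone, outside the rule, Isl1 stood at 448 CPM (albino) and 405 CPM (pigmented). Pou4f2 stood there at 127 and 115 CPM. In other retinal cells Isl1 was found in 35.4% (albino) and 24.0% (pigmented). Members with Isl1 carried Prdm13 in 8 of 44 albino and 9 of 52 pigmented cells, 18.2% and 17.3%, against 49.6% and 57.1% of members without Isl1. Of the members with Isl1, 24 of 44 albino and 30 of 52 pigmented cells were pair-only cells, which lack Ptf1a by the rule. This contrast therefore does not separate Isl1 from the class. Prdm13 in pair-only cells stood at 21.9 CPM (albino) and 4.56 CPM (pigmented), with 10 and 3 UMIs in all. Pair-only cells were also the deepest class, with medians of 12292 (albino) and 12149 (pigmented) UMIs, and they are called by their rule here rather than as a cell type.

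Genes of other retinal fates were present in members at different levels. Of 13 ganglion cell genes with enough UMIs, 4 were at least 2-fold lower in members than in other retinal cells of both libraries, Rbpms, Nefl and Islr2 among them, and 0 higher, with medians of -1.05 (albino) and -0.77 (pigmented), although the rule's limit on Sncg bears on this list. Of 6 photoreceptor precursor genes, 3 were higher and 0 lower, with medians of 1.28 and 1.06. Crx, a cone and rod factor gene, stood at 25.8 against 7.34 CPM (albino) and 27.0 against 10.5 CPM (pigmented), and Prdm1 and Thrb, the gene of a thyroid hormone receptor of cones, were the other two. Rcvrn and Pde6b, genes of later photoreceptors, had 0 UMIs in members. Otx2, which Crx follows, stood at 168 against 73.7 CPM (albino) and 169 against 84.6 CPM (pigmented), and within members at 97.9 and 99.9 CPM in double cells against 231 and 184 CPM in Ptf1a-only cells (albino, pigmented).

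Several genes of newly neurogenic cells were higher in members. Of 14 with enough UMIs, 6 were at least 2-fold higher in both libraries (Dll3, Gadd45a, Sox4, Sox11 and Btg2 among them) and 0 lower, with medians of 0.95 (albino) and 1.12 (pigmented). Of 6 transitional precursor genes, 3 were higher (Dlx1, Onecut1 and Pcdh17). Of 10 progenitor genes, 5 were lower (Sfrp2, Fgf15, Hes1 and Ccnd1 among them) and 1, Hes5, higher, so the 2 Hes genes stood on opposite sides. Hes1 was at 72.5 against 333 CPM (albino) and 108 against 409.9 CPM (pigmented), whereas Hes5 was 2.34-fold and 2.15-fold higher in members. The 6 ciliary margin genes with enough UMIs were all lower, with medians of -2.41 (albino) and -1.43 (pigmented). Among them was Ccnd2, encoding cyclin D2, at 8.59 against 46.3 CPM (albino) and 37.1 against 77.6 CPM (pigmented).

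Cell cycle genes were lower in members, but unevenly so. Of 16 S phase genes with enough UMIs, 12 were at least 2-fold lower in both libraries, and of 18 G2/M genes, 8. The G2/M list summed to 1990.4 CPM in albino members against 4346 CPM in other albino cells and to 2536 against 4959 CPM in the pigmented library. By class it was 390.0, 3119.5 and 2605 CPM (albino) and 1187, 5985 and 1947 CPM (pigmented) for double, pair-only and Ptf1a-only cells, lowest in double cells of both libraries. The pair-only cells were mixed in this respect, for Top2a stood at 419 CPM (albino) and 809 CPM (pigmented) in those with 1 UMI of Tfap2b and at 126 and 53.5 CPM in those with 2 or more. Top2a, a topoisomerase gene of dividing cells, stood in double cells at 9.63 CPM (6 UMIs) in the albino library and 66.6 CPM (74 UMIs) in the pigmented library. Scrublet called 10 of the 118 pigmented double cells and 0 of the 63 albino ones, and its part in that difference was not tested. Of 9 genes of the list of cell cycle exit and D cyclin genes with enough UMIs, 3 were lower, the D cyclin genes Ccnd1 and Ccnd2, whose products drive entry into S phase, and the cell cycle inhibitor gene Cdkn1a. Cdkn1c, the inhibitor p57, stood at 713 CPM (albino) and 987 CPM (pigmented) in double cells, against 415 and 298 CPM in Ptf1a-only cells.

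Grouped by the number of Ptf1a UMIs, members with 2 or more had a lower level of the G2/M list than members with 0 or 1. For 0, 1, 2 to 4, 5 to 9 and 10 or more Ptf1a UMIs it summed to 3119.5, 4125, 732, 1094 and 411 CPM in the albino library and to 5985, 2629.5, 1632, 1201 and 743 CPM in the pigmented library. These bins held 34, 33, 45, 48 and 11 albino cells and 49, 49, 74, 84 and 36 pigmented cells, so the last albino bin rests on 11 cells. By the rule the bin at 0 is the pair-only class, and the other bins differ in class too. The pair was held by 6 of 33 albino and 12 of 49 pigmented cells at 1 UMI, against 24 of 45 and 43 of 74 at 2 to 4. The bins therefore do not separate the amount of Ptf1a from the class. Prdm13 over the same bins was 21.9, 80.4, 157, 222 and 272 CPM (albino) and 4.56, 85.9, 273, 256 and 283 CPM (pigmented). The median UMIs per cell over these bins were 12292, 10343, 7772, 9196 and 9204 (albino) and 12149, 9563, 7780, 8398 and 8264 (pigmented), and the grouping was made after the data were seen.

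**Figure D4:**
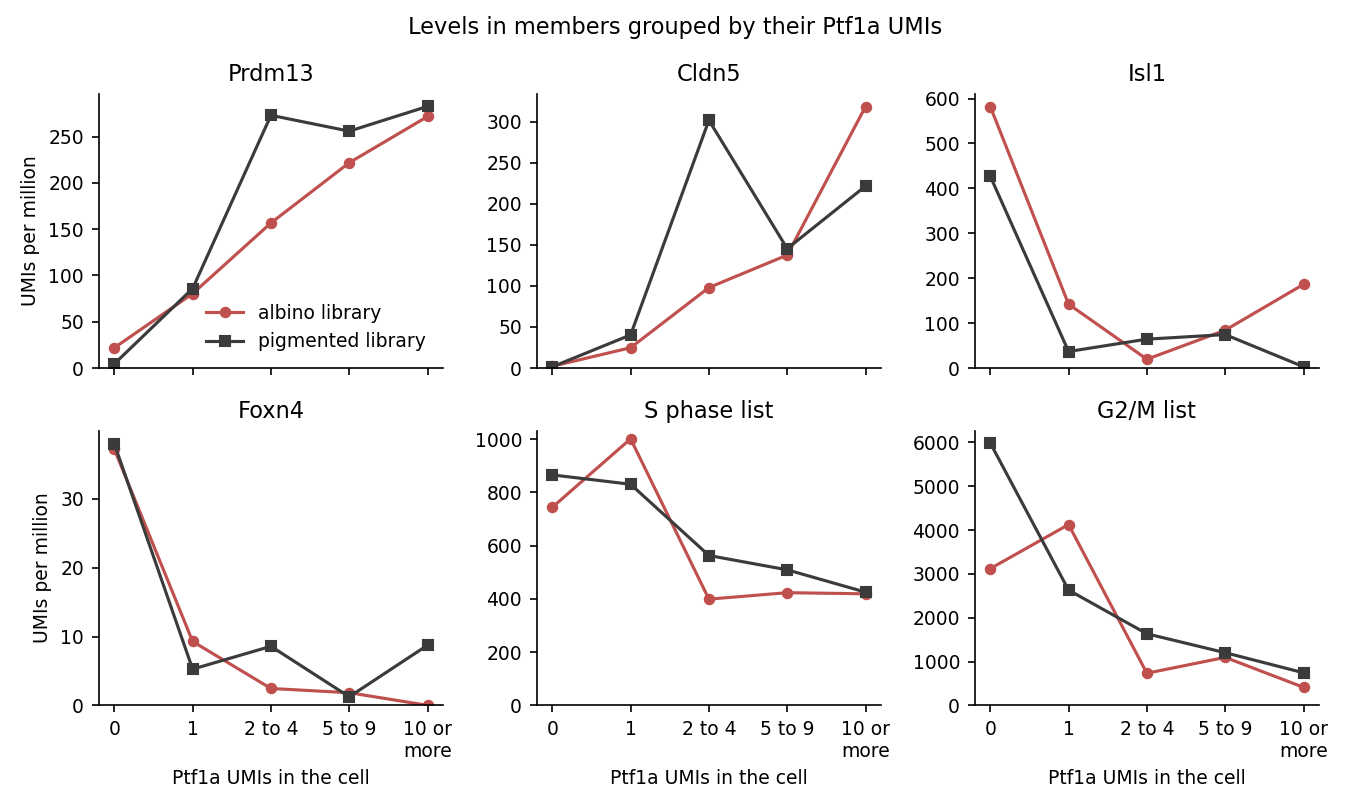
Level (CPM of summed UMIs) of Prdm13, Cldn5, Isl1, Foxn4, the S phase list and the G2/M list in members grouped by their number of Ptf1a UMIs (horizontal axis, low to high), in the albino library and the pigmented library, with no error drawn. Cells without Ptf1a, which are the pair-only class, hold the highest pigmented G2/M level (5985 CPM), and Prdm13 is lowest in them in both libraries.

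Lhx1 (chr11:84518284-84525535, minus strand), the LIM factor gene that horizontal cells use to reach their layer, was found in 11 albino and 15 pigmented members, with 20 and 28 UMIs. Of these cells, 10 of 11 and 15 of 15 were double cells, and 0 were Ptf1a-only cells. After thinning it was found in 10.2% of albino and 8.33% of pigmented double cells (unthinned 15.9 and 12.7%), and in 0 Sncg-rich and 0 collagen-rich cells of either library. Against members without Lhx1, 101 of 4749 genes (2.13%) were at least 2-fold higher in both libraries and 154 (3.24%) lower, values that rest on 11 and 15 cells. Since nearly all cells with Lhx1 were double cells, this comparison also sets double cells against the other classes. These 255 genes became 129 after thinning to equal depth and 103 in cells with Xist alone, where fewer UMIs remained under the same gene minimum. Calb2 stood at 640.3 CPM in members with Lhx1 against 104 CPM in those without (albino) and at 859 against 131 CPM (pigmented). Nnat, encoding neuronatin, stood at 11001 against 1878 CPM (albino) and 7986 against 2135 CPM (pigmented). Pmfbp1, Cacng2, Pcsk1n, Cnr1 (the cannabinoid receptor CB1), Slc1a6 (a glutamate transporter), Zfp503, Celf4 and Pcbp3 were the other genes among the 10 highest.

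Genes of both the horizontal and the amacrine fate were found in members with Lhx1. Prox1 was 2.88-fold (1.59 to 4.88) and 2.57-fold (1.62 to 3.92) higher with Lhx1 in the albino and pigmented libraries. Gad2, a GABA-making enzyme gene, was 3.16-fold (1.38 to 6.41) and 3.68-fold (1.92 to 6.60) higher. Gad2 was not particular to members, being found in 14.1% of other albino and 14.2% of other pigmented retinal cells, against 19.3 and 18.5% of members. Both genes were also higher in double than in Ptf1a-only cells, and nearly all cells with Lhx1 were double cells. These ratios therefore do not separate Lhx1 from that class. Prdm13 stood at 151 against 137 CPM (albino) and 189 against 177 CPM (pigmented), with intervals of the ratio of 0.581 to 1.93 and 0.715 to 1.55. It was below the Prdm13 level of double cells as a class, 318 CPM (albino) and 400.5 CPM (pigmented), in both libraries. Onecut1 was found in 11 of 11 albino and 11 of 15 pigmented members with Lhx1, and Tfap2a in 8 of 11 and 6 of 15. Isl1 was found in 1 of 11 and 0 of 15, and Pou4f2 had 0 UMIs in them. Of 9 ganglion cell genes with enough UMIs, 5 were at least 2-fold lower with Lhx1 in both libraries.

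Between the libraries, 5648 genes had at least 100 member UMIs in both libraries together. Of these, 48 (0.85%) were at least 1.5-fold higher in albino than in pigmented members and 94 (1.66%) lower, 142 in all. The 142 became 83 after thinning to equal depth, where fewer UMIs remained under the same gene minimum, and 215 with every cell weighted equally. The median log2 ratio over all genes was -0.01. Fate genes stayed under 1.5-fold with 1 exception. Prdm13 stood at 137 CPM in albino and 177 CPM in pigmented members, a ratio of 0.774 (0.665 to 0.900), and Onecut1 at 211 and 183 CPM, a ratio of 1.15 (1.01 to 1.31). Of 9 fate factors with enough UMIs, 1 was past 1.5-fold, Barhl2, at 41.3 against 26.7 CPM (ratio 1.55, 1.12 to 2.14). It had a ratio of 1.67 in other retinal cells as well. Cldn5 was lower at 88.6 against 139 CPM, a ratio of 0.637 (0.529 to 0.764).

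Isl1, Dcx and Mapt, genes of young neurons, were among those higher in albino members. Isl1 stood at 209 CPM in albino and 133 CPM in pigmented members, a ratio of 1.58 (1.37 to 1.82), and its ratio in other retinal cells was 1.53. Dcx, the microtubule protein gene doublecortin, and Mapt (tau) had ratios of 1.57 and 2.22 in members and 2.01 and 1.96 in other retinal cells. Dcx, however, had a log2 ratio of 0.10 in cells with Xist alone. Other retinal cells include the Sncg-rich cells, 544 of 3144 albino and 393 of 5331 pigmented cells. The ganglion cell list summed to 4459 CPM in other albino and 2427 CPM in other pigmented retinal cells. The part of this composition in the ratios of other retinal cells was not tested. In members, 2 of 9 ganglion cell genes with enough UMIs were past 1.5-fold higher, Isl1 among them, and 0 lower. Their median was 0.34 on the log2 scale, with all 9 above 0. Loxl2 had the highest lower bound among the genes higher in albino members, at 20.4 against 5.85 CPM (ratio 3.49, 1.94 to 6.49), but 34.2% of its albino UMIs came from 1 cell. A single cell held 45.3% of the albino UMIs of Dlg1, and a single cell 37.5% of those of Tmem245, whose log2 ratio was -0.23 after thinning. The remaining genes of the 10 with the highest lower bounds were Scaper, Ttbk1, Ncs1 and Limk1, with ratios between 1.89 and 2.30.

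Neurog2 and Ccnd2 were among the genes lower in albino members. Neurog2, a proneural bHLH gene, stood at 42.9 CPM in albino and 117 CPM in pigmented members, a ratio of 0.366 (0.284 to 0.467) against 0.812 in other retinal cells. Its ratio was 0.139 in pair-only cells (46.0 against 331 CPM), 0.549 in double cells and 0.995 in Ptf1a-only cells. The share of members with Neurog2 differed little, at 25.1% (albino) and 25.3% (pigmented), and 11.6 and 14.6% after thinning. Ccnd2, whose product the study's title names, had 16 UMIs in albino and 114 in pigmented members, levels of 8.59 and 37.1 CPM with a ratio of 0.232 (0.128 to 0.393). In other retinal cells its ratio was 0.597. These Ccnd2 UMIs came from 9 albino and 27 pigmented members, with 31.2% of the albino UMIs in 1 cell and 22.8% of the pigmented UMIs in 1 cell. Ccnd2 was found in 5.26% of albino and 9.25% of pigmented members (2.58 and 5.34% after thinning), the share in Sncg-rich cells being 2.39 and 6.11%. Restricted to cells with Xist and without Y-linked UMIs, the log2 ratio of Ccnd2 had the opposite sign, at 1.20.

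Aldh1a1, a retinoic acid synthesis gene of the dorsal retina, stood at 18.2 against 69.6 CPM (ratio 0.262, 0.177 to 0.378), while its ratio in other retinal cells was 1.02. Single cells held 29.4% of its albino and 24.3% of its pigmented member UMIs. Its log2 ratio, -1.93 in all members, was -1.36 after thinning, -1.24 with every cell weighted equally, -1.01 without Scrublet calls and -0.03 in cells with Xist alone. Sparc, Gja1 (connexin 43), Epcam, Olig2 and Plekhg1 were lower as well, with ratios between 0.266 and 0.293, but their values moved in cells with Xist alone. There the log2 ratio was -0.14 for Sparc, -0.04 for Olig2, -0.56 for Epcam, -1.04 for Plekhg1 and 1.11 for Gja1, and Sparc stood at -1.19 after thinning and -1.005 without Scrublet calls. Dqx1 and Endov rested on few cells, 1 cell holding 61.9% of the albino Dqx1 UMIs and 35.2% of the pigmented Endov UMIs, and Dqx1 turned to a log2 ratio of 1.86 in cells with Xist alone. By list, 4 of 17 G2/M genes (Top2a, Ccnb2, Aurka and Tpx2), 3 of 10 progenitor genes (Sfrp2, Fgf15 and Sox2), 3 of 13 neurogenic genes (Neurog2, Dll4 and Insm1) and 2 of 8 immediate early genes (Fos and Fosb) were lower and 0 higher. Their medians were -0.31, -0.35, -0.28 and -0.43 on the log2 scale. Of 12 S phase genes, 0 were past 1.5-fold, with a median of -0.14.

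**Figure D5:**
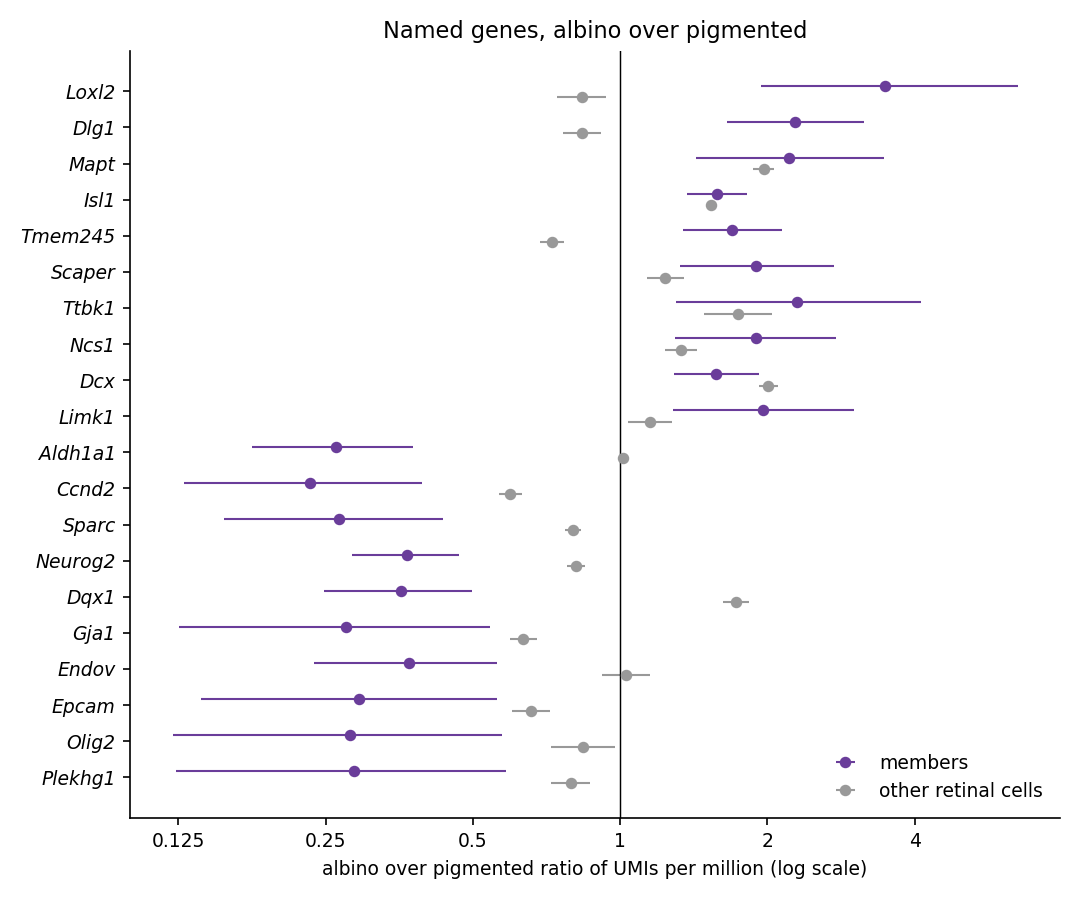
Ratio of albino over pigmented level (log axis) in members and in other retinal cells for the 20 named genes, with 95% exact conditional intervals that cover counting error only. Isl1 lies at 1.58 in members and 1.53 in other retinal cells, while Aldh1a1 lies at 0.262 and 1.02.

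In other retinal cells, 90 of 5643 genes (1.59%) were at least 1.5-fold higher in the albino library and 6 (0.106%) lower. Of the 48 genes higher in albino members, 8 were also among those 90, and of the 94 lower in albino members, 5 were among those 6. A single gene, Dqx1, was lower in albino members and higher in other albino cells. Sex of the embryos and the cells called by Scrublet differed between the libraries. Without Scrublet calls, 39 genes were higher and 68 lower in albino members, and in cells with Xist alone 75 were higher and 64 lower. Fewer cells, and so fewer UMIs, remained under the same gene minimum in both cases. Strain cannot be told apart from the group.

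Markers of macrophages and of pigment cells were at or near 0 in members. The microglia genes Fcer1g, C1qb, C1qc, Tyrobp, Cx3cr1, Ly86, Aif1 and Trem2 had 0 UMIs in members of both libraries, and C1qa had 0 in albino and 1 in pigmented members. C1qb stood at 35.3 CPM in other albino and 15.8 CPM in other pigmented retinal cells. Summed over their lists, macrophage genes stood at 0 and 0.975 CPM in albino and pigmented members against 89.4 and 46.0 CPM in other retinal cells. Pigment cell genes stood at 2.68 and 7.80 CPM against 96.3 and 66.8 CPM. Mesenchyme genes stood at 10.2 CPM in albino and 0.325 CPM in pigmented members against 4.94 and 2.84 CPM, within the rule's limit on collagen UMIs, and the 19 albino member UMIs of that list all lay in Ptf1a-only cells.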

How the data were processed

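Single cells from 2 libraries (1 per group) were profiled with the 10x Genomics 3′ assay. The deposited matrices hold UMI counts per gene and cell barcode, 32285 genes each. Cell Ranger 2.1.1 and mm10 are named in the submitters' processing notes, whereas per the file headers the matrices came from Cell Ranger 5.0.1. The sources used here do not give the strand setting of the counting. Overlapping genes on opposite strands, such as Ptf1a and Ptf1aos, may therefore share reads.

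From the counts, cells were filtered and selected as described above, UMIs were summed per library and class and divided by the library's class total to give CPM (per 1000000 UMIs). Ratios have exact conditional binomial 95% intervals, levels exact Poisson intervals and shares Clopper-Pearson intervals. UMIs remove most amplification duplicates, but cells of 1 library share their embryos and preparation, so intervals cover counting error only. A gene counted as past the fold at 1.5 between libraries, and at 2 in both libraries within libraries, with no test, since each group is 1 library. The minimum was 100 UMIs over both libraries, 10 expected member UMIs in each library, 50 UMIs within members, or 20 member UMIs in each library for the genes restricted to members. Genes were named between libraries by whichever interval bound lay closer to 1 (10 each way, at least 50 UMIs) and by the smaller of both libraries' ratios elsewhere. Genes of 21 lists (207 genes, 1 not found) and of the rule were also named, while the ranking passed over mitochondrial, ribosomal, sex-linked and gene-model genes. Genes named for restriction to members and for double over Ptf1a-only cells were chosen after their values were seen. The members and lists were chosen with earlier results of these data known. Of 32285 gene IDs, 32158 matched GENCODE M21. Promoters came from RefSeq, where 5 of 6 genes looked up were found. Some genes of the lists are not reported here by name.

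Python 3.11.15, NumPy 2.4.6, SciPy 1.17.1, pandas 2.3.3, Scanpy 1.11.5 (Scrublet) and matplotlib 3.10.9 were used. The ratio script was tested on simulated data with known folds. Alternatives were at least 1000 genes or at most 5% mitochondrial UMIs per cell, without Scrublet calls, Ptf1a of at least 2 UMIs, no Sncg limit, thinning to 5000 UMIs, equal weight per cell, cells with Xist and no Y-linked UMI, other gene minimums, and cells with Ptf1a only.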

Additional observations from a re-analysis of the deposited data

Results flagged for a closer look

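Some genes stood on opposite sides of 1 in the 2 libraries, each beyond its counting interval. The difference between the libraries was not tested for any of them, since each group is 1 library. For members over other retinal cells, Neurog2 had a ratio of 0.560 in the albino library and 1.243 in the pigmented library. The lens crystallin genes Cryaa (0.0271 albino, 2.588 pigmented) and Cryba1 (0 albino, 2.594 pigmented) rest on 1 and 0 albino and 11 and 10 pigmented member UMIs.

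For pair-only over Ptf1a-only cells, 4 genes of precursors or of S phase were lower in the albino library and higher in the pigmented library. The ratios were 0.688 (albino) and 1.884 (pigmented) for Neurod1, 0.672 and 1.385 for Otx2, 0.772 and 1.269 for Atoh7, and 0.525 and 1.476 for Rrm1, which encodes a subunit of ribonucleotide reductase. For double over Ptf1a-only cells, the neuronal genes Nefm (1.624 albino, 0.626 pigmented) and Elavl4 (1.732 albino, 0.649 pigmented) stood the other way. For members with Lhx1 over members without it, Meis2 had ratios of 0.234 (albino, 3 UMIs) and 1.815 (pigmented, 40 UMIs), and Prdm1 had ratios of 0 (albino, 0 UMIs) and 1.90 (pigmented, 23 UMIs).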

How the results depend on the processing

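The ratio of member shares, 0.981, lay between 0.945 and 1.03 under 7 alternatives, and the 776 genes past 2-fold between members and other retinal cells stayed within 1.5 times that count in all alternatives run. The count of 142 genes past 1.5-fold between the libraries was 83 after thinning, 215 with every cell weighted equally, 465 with a gene minimum of 50 UMIs and 39 with 200. After thinning, the counts were 35 (main 65) for pair-only over Ptf1a-only cells, 114 (main 189) for double over Ptf1a-only cells and 129 (main 255) for members with Lhx1. In cells with Xist and no Y-linked UMI they were 33, 98 and 103, with fewer cells. The gene minimums stayed the same in all of these, so fewer genes could be counted, and the numbers of genes that met them are not given here. Members over other retinal cells had log2 ratios of the summed S phase list of -1.11 (albino) and -1.15 (pigmented) and of the G2/M list of -1.13 and -0.97, and the sign held in all alternatives. With Ptf1a of at least 2 UMIs they were -1.33 and -1.22 (S) and -1.54 and -1.02 (G2/M). Without the Sncg limit they were -1.24 and -1.23 (S) and -1.32 and -1.10 (G2/M). After thinning they were -1.36 and -1.48 (S) and -1.28 and -1.31 (G2/M), and with equal weights -1.34 and -1.45 (S) and -1.26 and -1.295 (G2/M). With Ptf1a cells only they were -1.225 and -1.29 (S) and -1.42 and -1.64 (G2/M). In the pigmented library they were -1.39 (S) and -1.10 (G2/M) without Scrublet calls and -1.33 and -1.55 in cells with Xist and no Y-linked UMI. Of the 20 genes named between the libraries, 4 changed sign, Tmem245 to -0.23 after thinning and Ccnd2, Dqx1 and Gja1 to 1.20, 1.86 and 1.11 in cells with Xist and no Y-linked UMI, which 29.1% of pigmented members are. Of 87 values of the share ratio, the counts and the list ratios under alternatives, 53 stayed within 1.5 times (counts) or the counting interval (ratios) and 34 did not, and of 160 values of named genes, 137 stayed within it. The causes were not tested. No paired analysis was possible because each group is 1 library. Depth limits genes with few UMIs, such as Lhx1, Tfap2a and Ccnd2, in single members.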

Other observations

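Foxn4, the progenitor factor upstream of Ptf1a, was not evenly low in members. It stood at 1.61, 37.2 and 5.11 CPM in albino double, pair-only and Ptf1a-only cells and at 4.5, 38.0 and 6.12 CPM in the pigmented classes, against 32.3 and 33.1 CPM in other albino and pigmented retinal cells. Gad2 was found outside double cells too, at 63.5 CPM in albino pair-only cells (29 UMIs) and 21.3 CPM in pigmented pair-only cells (14 UMIs), against 5.11 and 9.18 CPM in Ptf1a-only cells. Of 9 immediate early and stress genes with enough UMIs, 5 were at least 2-fold lower in members than in other retinal cells of both libraries, with medians of -1.08 (albino) and -1.12 (pigmented) on the log2 scale. The lens list summed to 72.5 CPM in albino and 76.4 CPM in pigmented members, of which 70.3 and 66.3 CPM were Prox1, a gene that lens and horizontal cells share.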
